A study of Homo sapiens with 6 samples.

Results

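The nuclear genes for the subunits of the mitochondrial respiratory chain and ATP synthase were examined by ATAC-seq in A375 cells, an established human melanoma line. By their symbols in GENCODE release 44, 89 of 19970 protein-coding genes on chromosomes 1-22 and X encode such subunits (NDUFA, NDUFB, NDUFC, NDUFS and NDUFV genes with NDUFAB1, SDHA to SDHD, UQCR genes, COX4 to COX8 genes, and ATP5F1, ATP5M and ATP5P genes). They comprise 40 genes of complex I, 4 of complex II, 9 of complex III, 17 of complex IV and 19 of complex V, with NDUFA4 grouped by its symbol under complex I, and include the readthrough genes NDUFC2-KCTD14 and ATP5MF-PTCD1. Peaks centred in such a gene, or intergenic with its start site as the nearest protein-coding one, numbered 362 of 152800 and belonged to 79 of the 89 genes. Of these peaks, 242 were intergenic, 80 intronic, 32 in untranslated exons and 8 in coding exons.

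ATAC-seq uses the Tn5 transposase to cut and tag open chromatin, so that a peak's read count is a measure of its accessibility. A375 cells with stable overexpression of HMGB2, a DNA-bending high mobility group protein, gave 3 libraries (HMGB2OE) and were compared with empty vector A375 cells, which also gave 3. Both lines were made by lentiviral transduction and antibiotic selection, and the study describes the 3 libraries of a condition as technical replicates, so that p-values reflect the spread between libraries and not between independently made lines. The question was whether accessibility at these loci differed when HMGB2 was overexpressed.

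Complex I (NADH dehydrogenase), complex II (succinate dehydrogenase), complex III (the cytochrome bc1 complex) and complex IV (cytochrome c oxidase) pass electrons from NADH and succinate to oxygen, and ATP synthase, or complex V, uses the resulting proton gradient to make ATP. Most subunits are encoded in the nucleus and the remainder in the mitochondrial genome, and the nuclear genes are broadly transcribed from CpG-rich promoters. NRF1, the ETS factor GABPA (also called NRF-2), YY1 and the nuclear receptor ESRRA are known activators of many of them, and PPARGC1A is a coactivator of this programme.

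The start-site regions of 6 genes are shown because their promoter peaks hold core words of these factors. Each stretch spans 130 bases before and 30 bases after the start in the RefSeq promoter sequences (GRCh38.p14), is written 5′ to 3′ on the strand of the gene, and has in capitals the words CGCATGCG (NRF1), CCGGAAG (GABPA and other ETS factors), AAGATGGCG (YY1) and TCAAGGTCA (ESRRA), or their reverse complements.
NDUFS7: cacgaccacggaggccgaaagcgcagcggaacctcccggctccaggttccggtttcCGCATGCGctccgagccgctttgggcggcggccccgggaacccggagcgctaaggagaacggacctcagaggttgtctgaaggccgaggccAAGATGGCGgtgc
SDHB: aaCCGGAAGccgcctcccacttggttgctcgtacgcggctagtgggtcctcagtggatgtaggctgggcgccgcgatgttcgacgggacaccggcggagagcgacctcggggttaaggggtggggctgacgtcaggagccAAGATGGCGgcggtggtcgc
SDHD: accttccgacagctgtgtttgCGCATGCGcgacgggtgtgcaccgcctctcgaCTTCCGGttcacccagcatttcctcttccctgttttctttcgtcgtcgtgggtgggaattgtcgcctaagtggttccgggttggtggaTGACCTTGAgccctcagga
UQCR11: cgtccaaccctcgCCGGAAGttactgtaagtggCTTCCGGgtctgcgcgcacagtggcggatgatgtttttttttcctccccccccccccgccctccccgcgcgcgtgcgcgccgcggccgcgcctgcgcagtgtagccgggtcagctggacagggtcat
COX6A1: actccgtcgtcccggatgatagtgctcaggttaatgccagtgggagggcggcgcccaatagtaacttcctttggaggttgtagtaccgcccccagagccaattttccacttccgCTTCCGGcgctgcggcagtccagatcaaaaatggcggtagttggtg
ATP5PF: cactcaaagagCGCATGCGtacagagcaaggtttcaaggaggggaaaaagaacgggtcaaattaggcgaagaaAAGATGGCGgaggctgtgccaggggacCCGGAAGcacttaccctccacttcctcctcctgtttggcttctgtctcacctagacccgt
NDUFS7 is a core subunit of complex I (chr19:1383777-1383936, plus strand), and its stretch has an NRF1 word before the start and a YY1 word after it. SDHB (chr1:17054003-17054162, minus strand) and SDHD (chr11:112086743-112086902, plus strand) encode the iron-sulfur and a membrane-anchor subunit of succinate dehydrogenase. The UQCR11 stretch of complex III (chr19:1605433-1605592, minus strand) has a pair of ETS words facing opposite ways, and its end runs past the edge of the peak. COX6A1 of complex IV (chr12:120437983-120438142, plus strand) has 1 ETS word next to the start. The ATP5PF stretch of complex V (chr21:25735025-25735184, minus strand) holds NRF1, YY1 and ETS words, and the same peak covers the start of GABPA itself on the opposite strand.

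Counts in peaks ranged from 26910189 to 45645294 per library. Over the tested peaks, 9710 of 150117 (6.47%) had an adjusted p under 0.05 by edgeR, and 4894 to 8585 did when 1 library was left out, fewest without HMGB2OE library 1. Normalized counts below are counts scaled to equal effective library size. HMGB2 itself had a peak in its gene body from 173332680 with 32.02 ± 15.7 normalized counts in empty vector and 98.4 ± 5.31 in HMGB2OE libraries (SD, n = 3 each; log2 fold change 1.67, edgeR adjusted p = 1.13e-04), and reads from a transgene and from the native locus cannot be told apart here. Of the melanocyte lineage markers, SOX10, MITF, TFAP2A and PAX3 had a promoter peak at the start (544 to 1295 normalized counts). PMEL had 3768 on a peak centred 468 bp upstream of its start, and MLANA, TYR and DCT had none. Of 7 markers of other cell types, PTPRC and ALB had none, EPCAM had 217 counts at its start, and the promoter peaks of KRT5 (123), KRT14 (587), CD3E (248) and PECAM1 (27.3) lay more than 1 kb from the start.

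Nearly all respiratory chain genes had an accessible promoter in both conditions. A lead promoter peak was defined as the tested peak with the highest mean normalized count centred within 3 kb of a protein-coding start of the gene, and 83 of the 89 genes had one, on 81 different peaks. The 6 genes with none were COX4I2, COX6A2, COX7A1, COX8C, UQCRHL and ATP5MGL. Most of these are tissue-restricted isoforms or copies of a gene used in all tissues. Of the 81 peaks, 73 were centred within 250 bp of the start and 3 lay more than 500 bp away, at NDUFS6, NDUFA4L2 and NDUFA11. For 15 genes the centre of the lead promoter peak fell on the side of a neighbouring gene, so it was not among the 362 peaks above.

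All peaks compared here have the same width, so differences in count between genes do not come from width. GC content ranged from 43.8% (COX7B) to 73.3% (NDUFA10), and the levels were not adjusted for it. The median lead promoter peak of these genes had 776 normalized counts, against 660 for the lead promoter peaks of all protein-coding genes. NDUFA11, a membrane subunit of complex I, had the most, with 3180, 3630 and 4223 normalized counts in empty vector and 3812, 3239 and 3949 in HMGB2OE libraries, on a peak that is also within 1 kb of the start of VMAC. ATP5MC1 (2739), ATP5F1B (2073), COX8A (1988) and UQCRQ (1820) followed in mean normalized count. They encode a c-ring subunit and the catalytic beta subunit of ATP synthase, the ubiquitous subunit VIII of cytochrome c oxidase and a small subunit of complex III. The least accessible were COX7B2 (87.8), a testis isoform, followed by COX6C (179), NDUFS4 (233), NDUFB8 (239) and NDUFS7 (283). Genes of 1 complex therefore spanned a wide range of levels, and in complex I the range over genes was 233 to 3672.

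**Figure D1:**
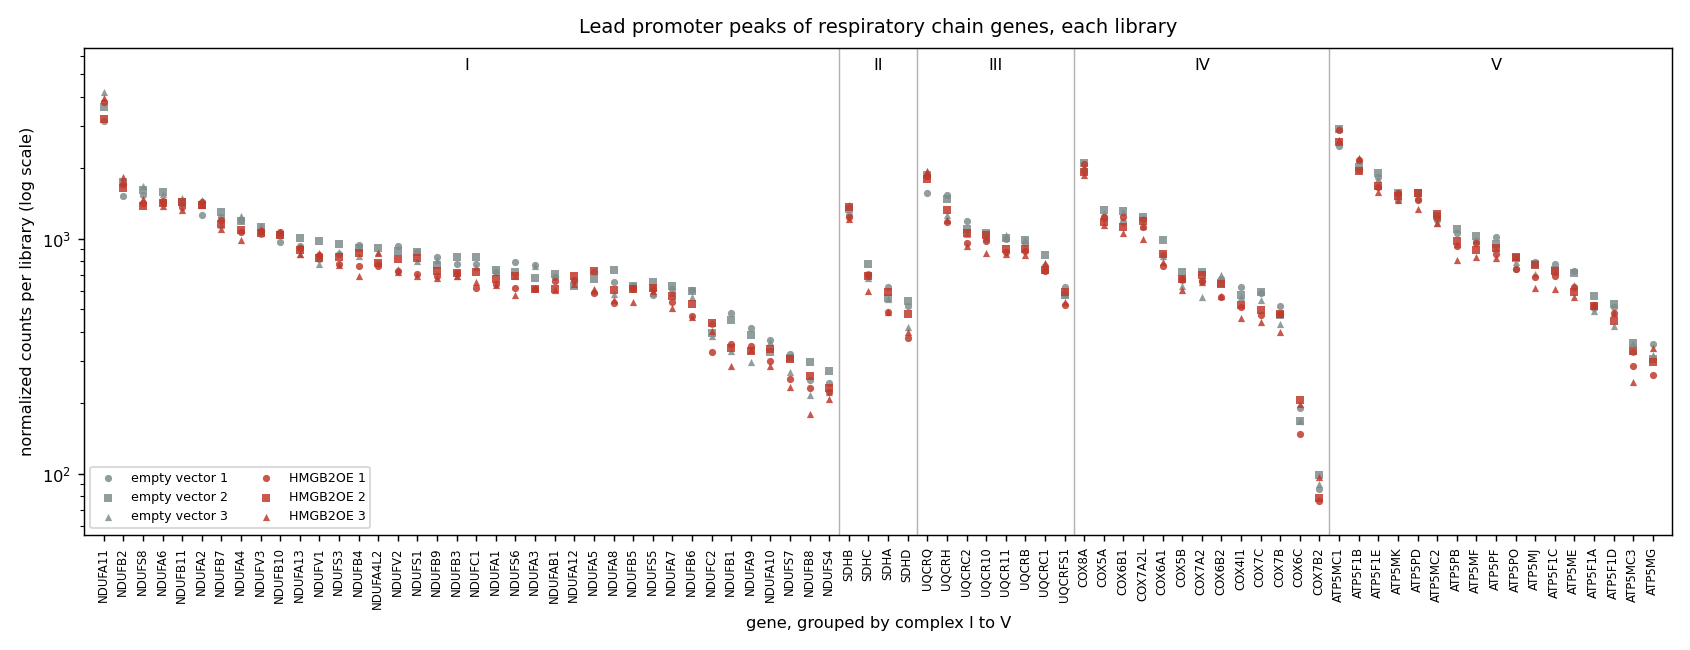
Normalized counts (log axis) of the lead promoter peaks (80 of 81 drawn) in each of the 6 libraries, with genes grouped by complex I to V and ordered by mean; grey symbols are empty vector and red symbols HMGB2OE. Genes differ from 87.8 (COX7B2) to 3672 (NDUFA11) normalized counts, whereas the 6 libraries of a gene lie close together.

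Ubiquitous subunit genes were paired with a tissue-restricted isoform, a copy (UQCRHL) or a paralogue (NDUFA4L2), and the pairs differed in whether a promoter peak was found. Of 8 pairs, the latter member had no tested promoter peak in 5, namely COX4I2, COX6A2, COX7A1, COX8C and UQCRHL. Their ubiquitous partners COX4I1, COX6A1, COX7A2, COX8A and UQCRH had 542, 851, 659, 1988 and 1326 normalized counts. In the other pairs, COX7B2 had 87.8 against 463 for COX7B, and COX6B2 had 632 against 1199 for COX6B1, on a peak 399 bp from its start. NDUFA4L2, a hypoxia-inducible paralogue of NDUFA4, had a peak of 832 that lay 1351 bp downstream of its start, against 1130 for NDUFA4.

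At the promoters, none of the 81 lead peaks had an adjusted p under 0.05 by edgeR's quasi-likelihood test, where 3.27% of 14295 lead promoter peaks of all genes did. Without empty vector library 3, 1 passed (NDUFB1, log2 fold change −0.50, adjusted p = 0.0134). At an unadjusted p under 0.05 there were 22 (27.2%, against 18.1% over all genes), each with a lower level in HMGB2OE. The estimates were small and mostly below zero: 70 of 81 (86.4%) had a log2 fold change below 0, against 69.5% over all genes, and the median was −0.13 against −0.07. The 3 libraries of each condition did not overlap, with HMGB2OE lower, at 21 peaks (25.9%, against a background of 20.1%), and did not overlap with HMGB2OE higher at 0 (background 6.07%). The 95% intervals lay within 1.5-fold in either direction at 80 of 81 peaks, NDUFB1 being the exception, and the median standard error was 0.088 on the log2 scale.

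The 5 lowest log2 fold changes were those of NDUFB1, COX7C, NDUFB6, ATP5MC3 and NDUFA3, and none passed the test. NDUFB1, an accessory subunit of complex I, had 484, 451 and 334 normalized counts in empty vector and 357, 343 and 287 in HMGB2OE libraries (log2 fold change −0.36 with a standard error of 0.12, edgeR adjusted p = 0.0772). These groups overlapped, because the third empty vector library lay below 2 of the HMGB2OE libraries. COX7C, a small subunit of cytochrome c oxidase, had 588, 592 and 547 in empty vector and 474, 499 and 442 in HMGB2OE libraries (−0.29, standard error 0.095, adjusted p = 0.0669). NDUFB6, another accessory subunit of complex I, had 607, 597 and 565 against 470, 526 and 463 (−0.28, standard error 0.095, adjusted p = 0.0763). The groups did not overlap at either gene. NDUFA3, also an accessory subunit of complex I, had 771, 681 and 764 against 608, 608 and 619 (−0.27, standard error 0.089), and its adjusted p of 0.0637 by edgeR was the lowest among these promoters. ATP5MC3, which encodes the c subunit of the ATP synthase ring, had 328, 360 and 359 against 286, 333 and 247, which overlapped (−0.27, standard error 0.12, adjusted p = 0.168). With the replicate block, the edgeR adjusted p of NDUFB1 was 0.0243, and with GC-content offsets those of COX7C and NDUFB6 were 0.0296 and 0.0444. All 3 passed with both together (0.0178, 0.0152 and 0.0265).

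The 5 highest log2 fold changes were close to zero, at COX6C (0.07), UQCRQ (0.06), COX7A2 (0.05), NDUFB10 (0.05) and NDUFB2 (0.04), and their adjusted p-values by edgeR lay between 0.734 and 0.819. COX6C had 190, 167 and 167 normalized counts in empty vector and 148, 205 and 198 in HMGB2OE libraries. UQCRQ had 1557, 1865 and 1921 against 1854, 1785 and 1935. At both genes, and at the other 3, the conditions overlapped, and the estimates of COX6C, UQCRQ, COX7A2 and NDUFB2 changed sign under some settings given at the end.

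The median log2 fold change of lead promoter peaks was −0.16 in complex I (39 peaks, 34 below 0), −0.13 in complex II (4 of 4 below 0), −0.13 in complex III (7 of 8), −0.11 in complex IV (11 of 13) and −0.12 in complex V (14 of 17). Differences between complexes were not tested. The 4 succinate dehydrogenase genes, which form the only complex with no mitochondrially encoded subunit, illustrate their size. SDHD had 516, 542 and 420 normalized counts in empty vector and 377, 478 and 400 in HMGB2OE libraries (log2 fold change −0.24 with a standard error of 0.11, edgeR adjusted p = 0.215). SDHA, the flavoprotein subunit, had 621, 557 and 554 against 486, 592 and 489 (−0.14, adjusted p = 0.455). SDHC, the other membrane anchor, had 706, 783 and 678 against 697, 695 and 597 (−0.12, adjusted p = 0.476), and SDHB had 1258, 1336 and 1393 against 1235, 1359 and 1209 (−0.07, adjusted p = 0.678). The conditions overlapped at all 4 genes. SDHA has near-identical pseudogene copies, and how reads with several alignments were counted is not given in the sources used here.

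**Figure D2:**
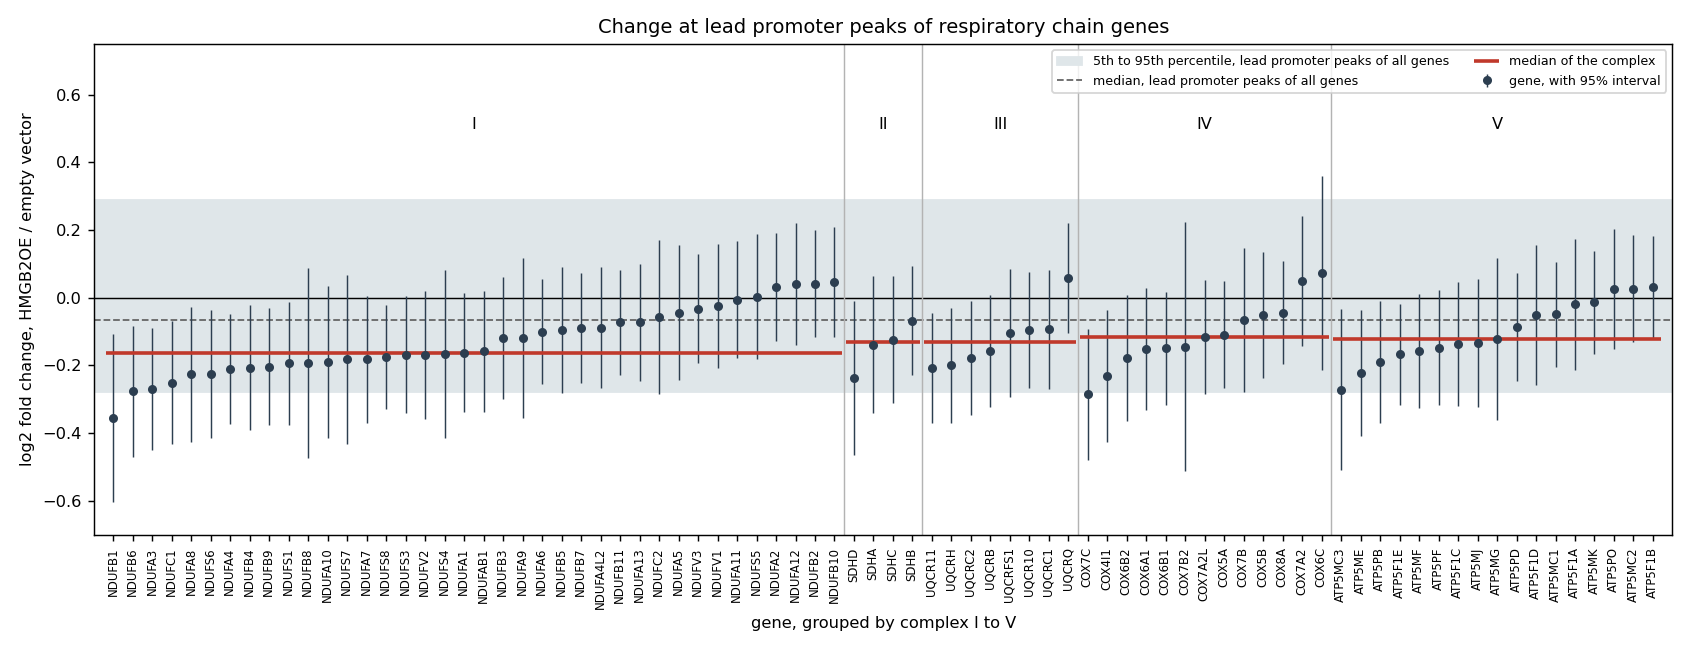
Log2 fold change (HMGB2OE over empty vector) of 80 of the 81 lead promoter peaks with their 95% intervals, grouped by complex I to V. Red bars are the medians of the complexes (−0.16, −0.13, −0.13, −0.11 and −0.12), the dashed line is the median over all protein-coding genes (−0.07) and the band their 5th to 95th percentile (−0.28 to 0.29). Most points lie below 0.

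Away from the starts of these genes, a few peaks did change. Among 361 tested peaks of these genes, 11 (3.05%) had an adjusted p under 0.05 by edgeR, 8 higher and 3 lower in HMGB2OE, where 6.47% of all tested peaks did (3.44% higher and 3.03% lower). With a fold change of at least 1.5 there were 6 (1.66%), 5 higher and 1 lower, where 3.31% of all tested peaks met both limits. The share among these genes was below the background on each count, and the difference was not tested. Without empty vector library 2 or HMGB2OE library 3, the counts were 3 higher and 0 lower, with 2 of at least 1.5-fold, and without empty vector library 1 they were 5 higher and 5 lower, with 1 of at least 1.5-fold. Without HMGB2OE library 1 or 2 they were 5 higher and 1 lower, and 3 of at least 1.5-fold without library 2. The split also varied with the model, with 8 higher and 7 lower with GC-content offsets, 11 and 5 with the replicate block, 11 and 10 with both, and 4 and 1 with DESeq2. Over all tested peaks, 9138, 12232, 11553 and 6928 passed under these models, against 9710 in the main fit. The number was 7642, 5288 and 8585 without empty vector library 1, 2 and 3. Without HMGB2OE library 1, 2 and 3 it was 4894, 5885 and 5890. None of the 11 was within 10 kb of the start of its gene, 8 were intergenic, 2 intronic and 1 in a coding exon.

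The clearest rise was at an intergenic peak upstream of NDUFB6 (chr9:32604164-32604665), whose distances to the starts of NDUFB6 (31.2 kb) and of TAF1L (31.3 kb) are nearly equal. It had 122, 147 and 145 normalized counts in empty vector and 258, 284 and 259 in HMGB2OE libraries, so that the conditions lay far apart (log2 fold change 0.94 with a standard error of 0.13, edgeR adjusted p = 4.45e-05). The direction was opposite to that of the NDUFB6 promoter estimate. The middle 300 bases of the peak (chr9:32604265-32604564, hg38, plus strand) are shown because they hold a TGANTCA word, the core of the AP-1 site, in capitals.
NDUFB6 upstream peak: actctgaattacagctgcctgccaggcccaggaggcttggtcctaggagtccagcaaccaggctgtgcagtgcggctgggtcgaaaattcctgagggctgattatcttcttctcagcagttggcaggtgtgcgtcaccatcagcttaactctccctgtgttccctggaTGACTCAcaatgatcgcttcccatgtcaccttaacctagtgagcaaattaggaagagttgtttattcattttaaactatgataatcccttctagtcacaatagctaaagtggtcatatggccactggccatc
This rise was retained in 15 of 15 alternative settings.

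A further 6 rises were smaller or weaker. A peak 26.6 kb upstream of COX5B (chr2:97619165-97619666), which encodes a nuclear subunit of cytochrome c oxidase, had 268, 223 and 269 normalized counts in empty vector and 317, 325 and 381 in HMGB2OE libraries (log2 fold change 0.43, edgeR adjusted p = 0.0242), a call lost without empty vector library 2 (adjusted p = 0.151) or HMGB2OE library 3 (0.116). This peak also lies 29.5 kb upstream of the start of ANKRD36B, which is nearly as near. An intronic peak of COX7B2 (chr4:46742390-46742891) had 202, 196 and 177 against 241, 310 and 235 (0.46, adjusted p = 0.0288), lost without empty vector library 2 or 3 or HMGB2OE library 2 (adjusted p = 0.0676, 0.0984 and 0.222). The COX7B2 call was also lost with DESeq2 (adjusted p = 0.0538). A peak 152 kb downstream of the start of NDUFS4 (chr5:53712224-53712725), an accessory subunit of complex I, had 210, 195 and 201 against 257, 262 and 295 (0.42, adjusted p = 0.0289), lost without any 1 library except empty vector library 1 (adjusted p = 0.0626 to 0.112). The NDUFS4 call was also lost with GC-content offsets (edgeR adjusted p = 0.0559). At each of these the conditions did not overlap, as at 25.1% of all tested peaks. The changed peaks named here were picked for passing the test, so non-overlap at them is not separate evidence. UQCRFS1, the Rieske iron-sulfur protein of complex III, is flanked by a gene-poor region and had 56 peaks, 20 of them with a log2 fold change above 0, and a median of −0.07. Of these, 1 rose, 124 kb from its start (chr19:29088579-29089080, with 58.4, 48.2 and 79.6 against 89.3, 95.9 and 117, log2 fold change 0.70, edgeR adjusted p = 0.0332). This call was lost without any 1 library except empty vector library 3 (0.0563 to 0.196), and with DESeq2 (adjusted p = 0.0684).

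NDUFA4, now counted as a subunit of cytochrome c oxidase, had 17 peaks, 13 of them with a log2 fold change above 0, and a median of 0.44. The median over all tested peaks was −0.005, and over those more than 100 kb from a protein-coding start it was 0.02. A pair of them rose, at 817 kb (chr7:10122621-10123122) and 764 kb (chr7:10175903-10176404) from its start. The first had 51.4, 57.7 and 58.5 normalized counts in empty vector and 81.6, 98.4 and 92.3 in HMGB2OE libraries (0.69, edgeR adjusted p = 0.0296). The latter had 23.6, 24.1 and 38.6 against 44.2, 55.9 and 73.2 (0.99, adjusted p = 0.0337). The conditions did not overlap at either peak. The call at 817 kb was lost without any 1 of the 6 libraries (adjusted p = 0.0516 to 0.125), and that at 764 kb without empty vector library 1 (0.089) or 2 (0.137) or HMGB2OE library 2 (0.0843) or 3 (0.179). With DESeq2 neither passed (adjusted p = 0.0623 at 817 kb and 0.0547 at 764 kb). The NDUFA4 promoter was lower in all HMGB2OE libraries, at 1069, 1086 and 986 against 1197, 1193 and 1247, without passing the test (−0.21, adjusted p = 0.11). At these distances, assignment to NDUFA4 rests only on its start being the nearest.

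The 3 falls were at NDUFA12 and UQCRHL. An intronic peak of NDUFA12 (chr12:94941460-94941961), an accessory subunit of complex I, had 200, 221 and 247 normalized counts in empty vector and 185, 144 and 149 in HMGB2OE libraries (log2 fold change −0.48, edgeR adjusted p = 0.0281). Downstream of UQCRHL, an intronless copy of UQCRH, the peak at 10.7 kb (chr1:15796683-15797184) had 329, 425 and 378 against 298, 307 and 247 (−0.41, adjusted p = 0.0293). The peak at 14.4 kb (chr1:15793008-15793509) had 50.03, 47.3 and 45.6 against 21.3, 26.7 and 25.9 (−0.95, adjusted p = 0.0474). The conditions did not overlap at any of the 3. The NDUFA12 call was lost without empty vector library 2 (0.0736) or 3 (0.111) or HMGB2OE library 2 (0.134) or 3 (0.0911), in edgeR adjusted p. It was also lost with DESeq2 (adjusted p = 0.0605). The call at 10.7 kb was lost without empty vector library 2 (0.189) or 3 (0.0581) or HMGB2OE library 1 (0.075) or 3 (0.131), and that at 14.4 kb without any 1 of the 6 libraries (0.0831 to 0.168) and with library size scaling, DESeq2 or the replicate block. The 9 changes from COX5B to UQCRHL each lost significance in 2 to 9 of 15 alternative settings, with their direction kept.

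**Figure D3:**
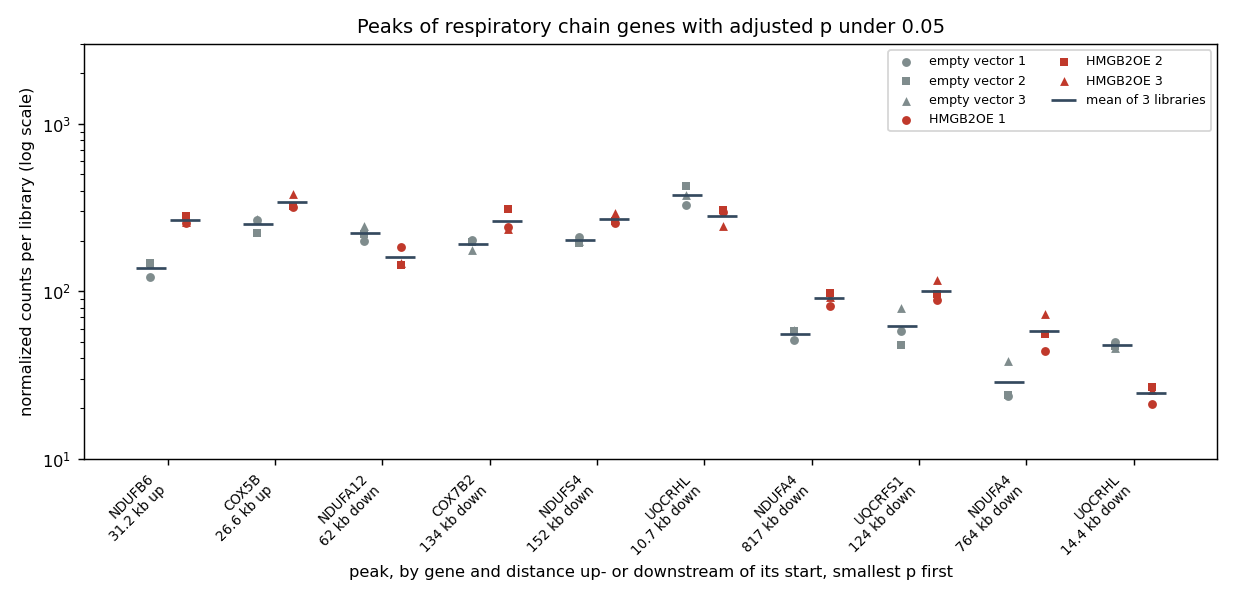
Normalized counts (log axis) in each library for 10 of the 11 peaks with an adjusted p under 0.05, labelled by gene and distance from its start; bars are means of 3 libraries. At each of the 10 the empty vector (grey) and HMGB2OE (red) libraries do not overlap, and the smallest p is at the NDUFB6 peak 31.2 kb upstream.

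By distance from the start, the peaks that passed lay far out. Peaks of these genes were placed by distance to the start of their own gene. The backgrounds are all tested peaks by distance to the nearest protein-coding start of any gene, and these distances can differ. Within 1 kb there were 73 tested peaks, of which 0 passed (background 3.03%) and the median log2 fold change was −0.12. From 1 to 10 kb, 0 of 67 passed (background 5.34%), with a median of −0.06. From 10 to 100 kb, 6 of 105 passed (background 7.1%), 3 in each direction, with a median of 0.02. Beyond 100 kb, 5 of 116 passed (background 8.3%), all higher, and these 116 peaks belonged to only 10 genes. Precision also changed with distance: the median normalized count was 712 within 1 kb and 62.9 beyond 100 kb, and the median standard errors were 0.09 and 0.22.

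**Figure D4:**
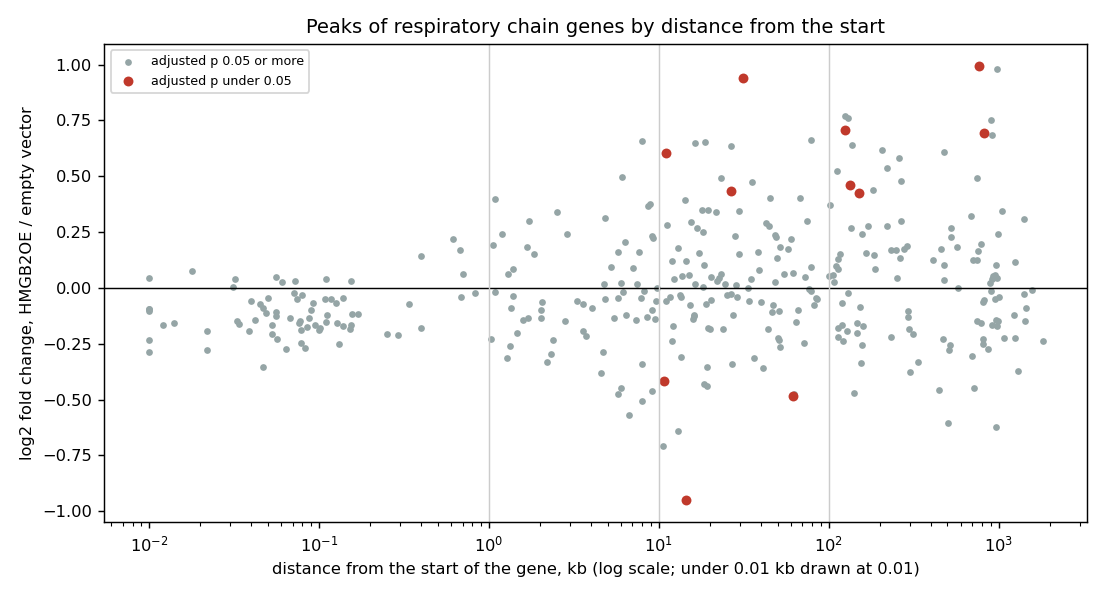
Log2 fold change (HMGB2OE over empty vector) of the 361 tested peaks against distance from the start of the gene (log axis). Points within 1 kb are narrowly spread with a median of −0.12, and the 11 peaks with an adjusted p under 0.05 (red) all lie beyond 10 kb.

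The arrangement of starts and the core words had not been used to select the lead promoter peaks, and their shares are given as descriptions with no test. Starts on both strands lay within 1 kb of 30 of the 81 peaks (37.0%), against 9.3% of lead promoter peaks of all genes, as at NDUFB1 and CPSF2 or SDHD and TIMM8B. The NRF1 word occurred in 11 of 81 (13.6%, against 3.57% of all), the YY1 word in 15 (18.5% against 3.86%), the ETS word in 24 (29.6% against 19.3%) and the ESRRA word in 2 (2.47% against 0.217%). The CRE word TGACGTCA occurred in 5 (6.17% against 3.13%). The SP1 word GGGCGG was found at close to the same share, 75.3% against 73.3%, and the AP-1 word TGANTCA at a lower one, 6.17% against 13.6%. In RefSeq promoter windows of 300 bases the AP-1 shares did not differ, at 5.71% against 5.74%. The AP-1 word was found in 4 of the 11 changed peaks, among them those at NDUFB6, COX5B and UQCRHL, where 36.4% of all tested peaks hold it. All words were searched on both strands and a match is not evidence of binding.

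Position distinguished the words. RefSeq promoter windows of 300 bases were found for 70 of the 89 genes. The NRF1 word occurred in 10 of them, with its first base from 219 to 3 bases before the start. The YY1 word occurred in 8, and in 7 of these, including SDHB, NDUFS7, NDUFS4 and UQCRC1, it began 11 to 26 bases after the start on the strand of the gene, ATP5PF being the exception. The median log2 fold change was −0.18 at lead peaks with the NRF1 word and −0.12 at those without, and −0.15 and −0.12 for the ETS word, −0.15 and −0.13 for the YY1 word, −0.25 and −0.12 for the ESRRA word and −0.18 and −0.13 for the AP-1 word. For the SP1 and CRE words the order was the other way, with −0.12 and −0.07 at peaks with the word and −0.16 and −0.14 at those without. The median at peaks with the ESRRA word rests on 2 peaks, and those with the AP-1 and CRE words on 5 each. These differences were not tested.

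**Figure D5:**
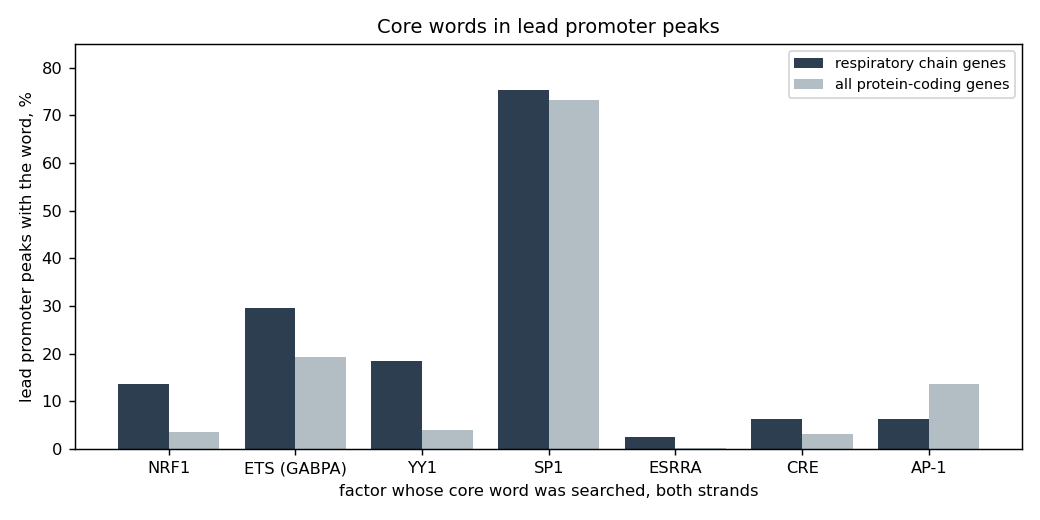
Percent of lead promoter peaks with each factor's core word, for respiratory chain genes (dark bars, 81 peaks) and all protein-coding genes (light bars, 14295 peaks). The NRF1 word (13.6% against 3.57%) and the YY1 word (18.5% against 3.86%) differ most in ratio among words found in 10 or more respiratory chain peaks.

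At genes that build or regulate the chain, 1 lead promoter peak passed the test, where 3.27% of lead promoter peaks of all genes did. All 61 assembly factor genes examined had a lead promoter peak, of which 0 passed the test (background 3.27%), 55 were below 0 and the median log2 fold change was −0.10. Over lead promoter peaks of all genes, the background for these and for the regulators below, 69.5% were below 0 and the median was −0.07. Without empty vector library 1, UQCC6, a complex III assembly factor, and LRPPRC, which binds mitochondrial mRNA, were lower with adjusted p-values of 0.0439 and 0.0387. CYCS, encoding cytochrome c, had 2313, 2531 and 2304 normalized counts in empty vector and 2172, 2206 and 2275 in HMGB2OE libraries (−0.10, edgeR adjusted p = 0.429), and CYC1, cytochrome c1, had a log2 fold change of −0.04. Among 12 regulators, 11 were below 0 and did not pass, including NRF1 (−0.06), TFAM, the mitochondrial transcription factor A (−0.03), and GABPA, whose promoter peak is that of ATP5PF (1020, 948 and 916 against 861, 912 and 827; −0.15, adjusted p = 0.322).

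The peak that passed was that of PPARGC1A, which encodes the coactivator PGC-1α. Its lead promoter peak (chr4:23888342-23888843), 1443 bp downstream of a start, had 175, 220 and 211 normalized counts in empty vector and 317, 264 and 247 in HMGB2OE libraries, with no overlap. It rose by a log2 fold change of 0.44 (standard error 0.13, edgeR adjusted p = 0.032). The call was lost with DESeq2 (adjusted p = 0.0559) and without empty vector library 1 (0.119) or 3 (0.0529) or HMGB2OE library 1 (0.225) or 2 (0.061). The peak at the start itself (from 23889826) had 110, 130 and 162 against 137, 165 and 149, which overlapped (0.16, adjusted p = 0.589). Of all 56 peaks of PPARGC1A, examined after the value of the lead peak was seen, 4 rose and 1 fell (8.93%, background 6.47%). The fall, at chr4:23899032-23899533, was the largest of these changes, from 122, 124 and 146 to 68.9, 42.5 and 54.0 (−1.24, adjusted p = 1.49e-04).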

How the data were processed

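ATAC-seq libraries of A375 cells (3 empty vector, 3 HMGB2OE) were compared from the peak counts that the authors deposited. These are raw counts, not normalized and not pooled. Before deposit, the authors ran Trim Galore 0.6.7 and cutadapt 4.0 on the reads, Bowtie 2 against hg38, and Picard to take out duplicates. Their peaks came from MACS2, with melanocyte data from a public source as control, were joined where within 500 bp, and were filled with featureCounts. A shift of positions for Tn5 and the treatment of reads with several alignments are not given in the sources used here. Peak starts may be 1 base off, since 1 peak begins at 0.

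Counts over all 150117 peaks kept by filterByExpr were fitted with edgeR 4.0.16 (R 4.3.3; TMM, quasi-likelihood F test, no covariate), with Benjamini-Hochberg adjustment over all of them. GENCODE 44 gave locations. Depth was 26910189 to 45645294 counts, and TMM factors were 0.975 to 1.02. The fit was run on simulated data in which 200 peaks were changed by a log2 fold of 1.5. With the adjusted p and 1.5-fold limits it recovered 90.5% of them, with 13 false calls. Changes as small as those at the promoters here were not simulated. Named genes are the changed peaks, the 5 highest and lowest promoter changes and levels, 8 isoform pairs, the SDH genes, and listed regulators; the NDUFA4 promoter and further PPARGC1A peaks were named after their values were seen, and 1 gene is not reported here by name. The members, lists and words were chosen with earlier results of these data known. Alternatives were other scalings, DESeq2 1.42.0, other filters, a replicate block, GC-content offsets, both together, leaving out each library, a fold limit of 1.25, a 1 kb promoter window, RefSeq windows and, added after seeing the data, the promoter peak nearest to the start.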

Additional observations from a re-analysis of the deposited data

How the results depend on the processing

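Library size scaling, DESeq2's size factors, a loess trend, and other count filters left all counts of calls within 1.5 times of those reported; the median of the lead promoter peaks of these genes lay between −0.13 and −0.09 under them, and 63 to 70 of 81 were below 0 (58.9% to 69.5% over all genes). With DESeq2's Wald test, 4 peaks were higher and 1 lower, 2 with at least 1.5-fold, and 0 of the assembly factors and regulators. Deviations from the condition mean correlated at −0.24, 0.26 and 0.43 between libraries of the same replicate number, and at −0.49 to 0.27 between other numbers. Whether the replicate numbers pair the libraries was not settled. With the replicate block, 12232 of all tested peaks passed, against 9710 without it. The number was 6928 with DESeq2's Wald test, 9138 with GC-content offsets and 11553 with these and the replicate block. With the replicate block, 5 peaks were lower and 1 promoter, NDUFB1, passed (edgeR adjusted p = 0.0243). GC-content offsets gave 7 lower peaks and 2 promoters, COX7C (adjusted p = 0.0296) and NDUFB6 (0.0444). The replicate block with GC-content offsets gave 10 lower peaks, 4 promoters (also NDUFB1 and NDUFC1) and 2 of the other lists (PPARGC1A and PET100). The lower of the fold limits gave 11 peaks. In RefSeq windows the YY1 word had a share of 11.4% (2.8% over all genes), the SP1 word 60.0% (59.2%) and the AP-1 word 5.71% (5.74%).

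Leaving out 1 library gave 3 to 8 higher peaks, 0 to 5 lower, 1 to 7 with at least 1.5-fold, 0 to 1 promoters (NDUFB1 without empty vector library 3, adjusted p = 0.0134), 65 to 74 promoters below 0 with a median of −0.16 to −0.09, 4894 to 8585 of all tested peaks, and 0 to 2 of the other lists. The fewest higher peaks (3) and lower peaks (0) were without empty vector library 2 or HMGB2OE library 3, the fewest 1.5-fold peaks (1) without empty vector library 1, where 5 were lower, and the fewest of all (4894) without HMGB2OE library 1. Without HMGB2OE library 1 or 2, 5 were higher and 1 lower. Signs turned at COX6C (−0.0205 without HMGB2OE library 2 and up to 0.212 without other libraries), UQCRQ (−0.0259 to 0.113) and NDUFB2 (−0.0203 to 0.0784, lowest at both without empty vector library 1), and COX7A2 (−0.0406 without empty vector library 3, up to 0.137, −0.0139 with GC-content offsets and −0.00791 with these and the replicate block). The cause of these differences was not tested. Counts under 100 limit precision at distal peaks. Percentages of words carry no counting interval.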

Other observations

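The mitochondrial genome, which encodes the remaining subunits of complexes I, III, IV and V, was covered by 11 peaks. They took 1.82%, 1.252% and 2.03% of the counts in peaks in empty vector libraries and 1.66%, 1.36% and 2.78% in HMGB2OE libraries, which overlapped. The log2 fold changes of the 11 peaks lay between 0.14 and 0.18, with adjusted p-values by edgeR of 0.518 to 0.615. Mitochondrial DNA carries no nucleosomes, so these counts are not accessibility in the sense used for the nuclear genes.

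Among the promoter peaks with starts on both strands, the gene on the other strand varied. The partner of NDUFB5 was MRPL47, a gene of the mitochondrial ribosome, and the partner of SDHD was TIMM8B, a mitochondrial import factor. The partner of NDUFA7 was RPS28, of NDUFS1 EEF1B2 and of NDUFA2 IK, whose products act in cytosolic translation or splicing. A count in such a peak cannot be given to either gene alone.

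The lower UQCRHL peak at 10.7 kb also holds an AP-1 word, in capitals in the middle of the peak (chr1:15796784-15797083, hg38, plus strand).
UQCRHL downstream peak: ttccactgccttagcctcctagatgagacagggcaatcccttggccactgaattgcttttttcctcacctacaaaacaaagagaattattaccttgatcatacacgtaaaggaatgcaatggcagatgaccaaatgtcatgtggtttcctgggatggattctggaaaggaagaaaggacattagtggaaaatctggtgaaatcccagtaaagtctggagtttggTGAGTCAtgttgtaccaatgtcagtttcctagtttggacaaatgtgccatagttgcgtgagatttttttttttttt
The AP-1 word was thus found both at peaks that rose and at a peak that fell. It was in 4 of the 11 changed peaks and in 36.4% of all tested peaks, so it was no more frequent at the changed peaks.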
